A study of Mus musculus with 6 samples.

Results

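The mitochondrial ribosomal proteins were 78 of the 52550 Ensembl gene identifiers measured, 49 with an Mrpl symbol (large subunit) and 29 with an Mrps symbol (small subunit). They were taken as every identifier whose mouse symbol begins with Mrpl or Mrps and a digit, and the 5 identifiers with a -ps (pseudogene) symbol were left out. RNA was sequenced from epithelial cells of the colon of male Apc Min/+ mice, which carry a truncating mutation in 1 copy of the tumour suppressor gene Apc in both groups and were 5 to 6 weeks old. The control group received 2% Tween 80 as vehicle. The other group received atorvastatin, an inhibitor of the cholesterol synthesis enzyme HMG-CoA reductase, at 20 mg/kg, and the labels do not give its vehicle. Both were given by gavage on alternate days, with 3 libraries per group. The only comparison is atorvastatin against the Tween 80 control on the Apc Min/+ background, with no wild-type mice. The labels do not say that each library came from a separate animal, so the p-values measure the spread between these libraries, which may be technical.

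Mitochondria translate the few mRNAs of their own genome, which encode subunits of the respiratory chain and of ATP synthase, on a dedicated ribosome. Its rRNAs, mt-Rnr1 in the small subunit and mt-Rnr2 in the large subunit, are transcribed from mitochondrial DNA, whereas every one of its proteins is encoded in the nucleus, made in the cytosol and imported. Many of these proteins descend from bacterial ribosomal proteins and others were gained in the mitochondrial lineage. In the epithelium of the colon, whose cells turn over fast and oxidise butyrate, the products of mitochondrial translation carry oxidative phosphorylation.

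Levels are given in FPKM, that is, fragments scaled by gene length and by library size, and their read depth is unknown. The libraries had totals of 407857 to 430832 FPKM, 11456 to 11655 genes at or above 1 FPKM, and 30.3% to 33.2% of the total in mitochondrially encoded genes. Relative depth, read from the commonest value of short genes, was 0.996 to 1.14 times that of control replicate 1. The label of epithelial cells was checked against markers. All 9 markers of colon epithelium, such as Krt8, Epcam and Vil1, were expressed, with summed levels of 5348 to 5677 FPKM in the control and 5202 to 5409 FPKM in the atorvastatin libraries. Of 11 leukocyte markers 4 were high enough to be tested, and the sum over the 11 was 8.20 to 14.1 FPKM in the control and 5.84 to 6.94 FPKM in the atorvastatin libraries. The 10 markers of stroma, vessel and muscle were all below the filter (0.571 to 1.18 and 0.585 to 0.799 FPKM in sum), with Kdr at 0. In bulk RNA, fewer cells of a type and less RNA per cell cannot be told apart. The part of the lower leukocyte markers in the results below was not tested.

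All 78 genes were expressed, at 1.43 to 47.9 FPKM in single libraries, and atorvastatin was followed by no called change in any of them. All 78 passed the filter of at least 1 FPKM in at least 3 libraries, as did 11644 genes in all. In the limma fit on log2(FPKM + 1), 47 of the 11644 genes (0.404%) had a Benjamini-Hochberg adjusted p under 0.05, 18 higher and 29 lower with atorvastatin, and 0 of the 78 did (0 as well when limma was run without its trended and robust options). The smallest adjusted p among the 78 was 0.328, from limma for Mrpl45. At an unadjusted p under 0.05 there were 4 of the 78 (5.13%), Mrpl45, Mrps21, Mrps18c and Mrpl49, with higher values, against 7.75% of all genes tested, and 0 with lower values, against 4.27%. The control and atorvastatin libraries did not overlap for 10 of the 78 (12.8%), 9 higher and 1 lower, against 18.1% of all genes, 1400 higher and 705 lower.

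The differences were small as well as uncalled. The log2 fold changes ran from -0.16 to 0.46 with a median of 0.03, beside 0.02 over all genes tested. They were positive for 56 and negative for 22 of the 78 (71.8% positive), and positive for 57.3% of all genes. Without control replicate 2 they were positive for 42 of the 78 (53.8%, against 54.6% of all genes), with a median of 0.01, and without atorvastatin replicate 2 for 45 (57.7%, against 53.3%). On the log2(FPKM + 1) scale, the 95% interval lay within 1.5-fold in either direction for 76 of the 78 genes (97.4%), against 91.6% of all genes. The other 2 were Mrps21 and Mrps23. That scale understates changes of genes with low levels, and 41 of the 78 were under 10 FPKM. For such genes the interval of the FPKM ratio itself is wider and may pass 1.5-fold. The plot of fold changes with their intervals shows the 78 genes by subunit.

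**Figure D1:**
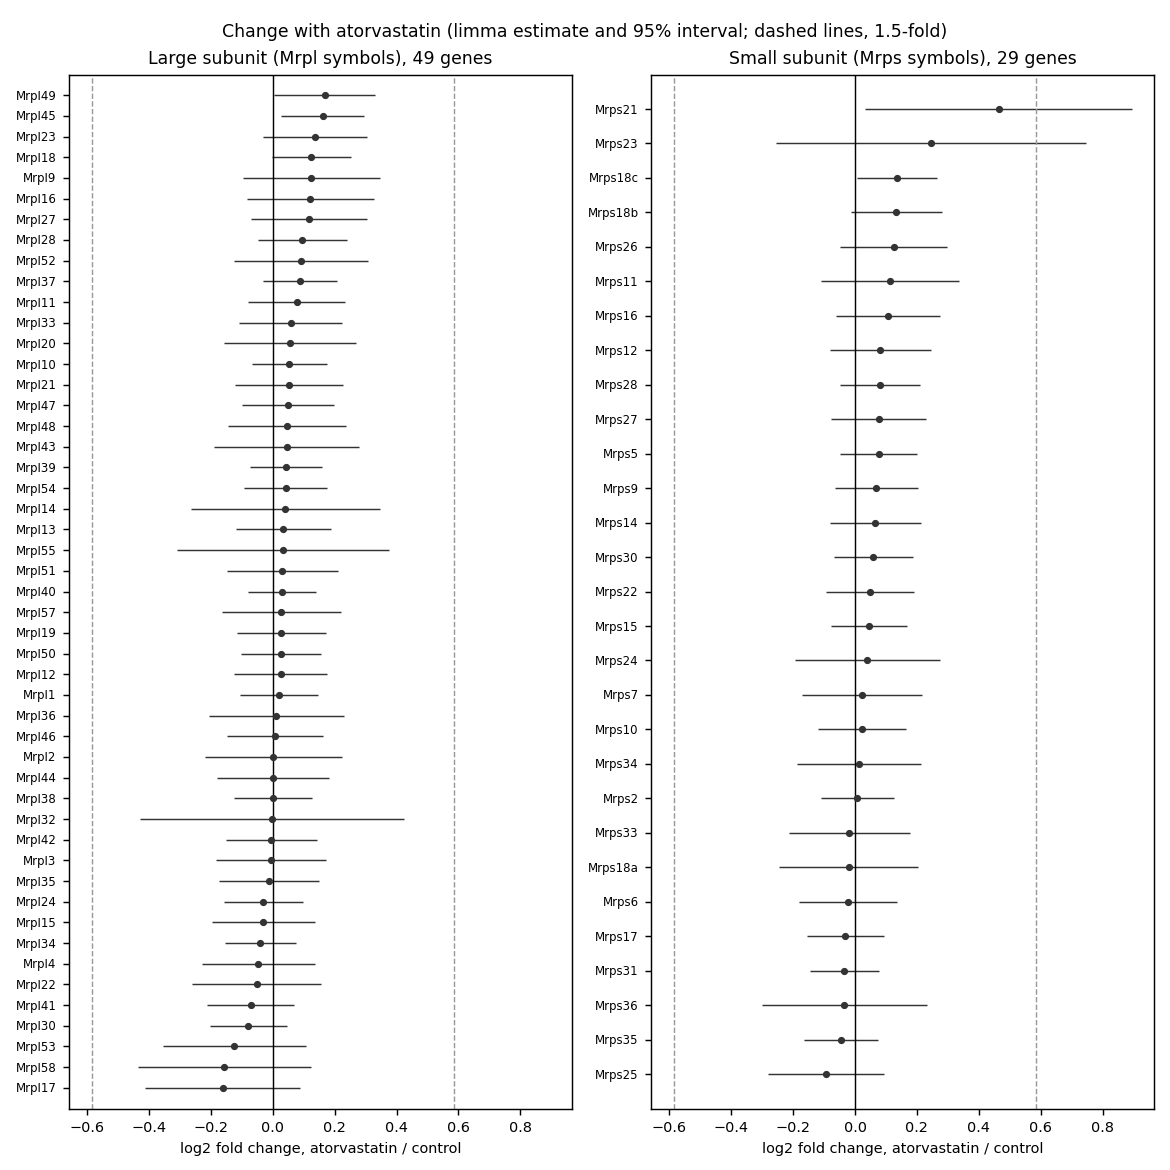
The log2 fold change of atorvastatin over control (horizontal axis) of each of the 49 Mrpl and 29 Mrps genes, as points with the 95% interval from limma as bars; dashed lines mark 1.5-fold. Estimates run from -0.16 to 0.46, the intervals of Mrps21 and Mrps23 cross a dashed line, and the other 76 lie inside both lines.

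Upstream sequences of 4 of the genes are shown because the group's start regions share short motifs more often than other genes do. A window from 250 bases before to 50 bases after the transcription start, from RefSeq on GRCm38.p6, was found for 69 of the 78 genes. On either strand, the NRF1 motif, read as GCGCA, any base and GCGC, was in the windows of 13 of the 69 (18.8%) and of 5.19% of the 26996 genes with a window. Those 26996 include genes below the expression filter, whereas all 78 passed it. NRF1, nuclear respiratory factor 1, is a transcription factor known for binding genes of mitochondrial function. The ETS motif CCGGAAGT, bound by factors such as GABP, was found in 12 (17.4%, against 4.31%), and the YY1 motif AAGATGGC in 12 (17.4%, against 3.19%). None of these 3 letter strings lies within another, and 34 of the 69 (49.3%, against 11.7%) held at least 1 of them. The windows were also richer in G and C, with a median of 58.7% against 52.7% and of 21 CpG dinucleotides against 7, and the part of base composition in the motif shares was not tested. Sequences were drawn from genes with a match in an upstream run of at least 100 bases free of annotated exons. There were 4 such genes for NRF1 and 3 for ETS, and those with the smallest p are shown. The sequences run 5′ to 3′ on the gene's strand, end at or before the base ahead of the start, and have the NRF1 or ETS match in capitals.
Mrpl45: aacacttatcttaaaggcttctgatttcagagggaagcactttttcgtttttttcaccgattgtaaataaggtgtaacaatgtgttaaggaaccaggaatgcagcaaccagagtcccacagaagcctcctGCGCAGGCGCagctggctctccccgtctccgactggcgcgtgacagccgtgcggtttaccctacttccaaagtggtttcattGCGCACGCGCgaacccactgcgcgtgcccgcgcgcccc
Mrpl17: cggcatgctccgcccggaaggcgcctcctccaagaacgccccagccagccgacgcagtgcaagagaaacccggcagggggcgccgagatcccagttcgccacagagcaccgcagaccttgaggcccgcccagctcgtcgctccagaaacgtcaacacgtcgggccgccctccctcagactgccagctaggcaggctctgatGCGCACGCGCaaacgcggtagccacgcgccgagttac
Mrps22: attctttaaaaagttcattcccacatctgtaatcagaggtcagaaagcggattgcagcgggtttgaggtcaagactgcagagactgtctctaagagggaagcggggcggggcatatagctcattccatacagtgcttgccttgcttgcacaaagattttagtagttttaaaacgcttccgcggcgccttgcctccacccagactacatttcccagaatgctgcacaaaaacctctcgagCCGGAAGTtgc
Mrpl48: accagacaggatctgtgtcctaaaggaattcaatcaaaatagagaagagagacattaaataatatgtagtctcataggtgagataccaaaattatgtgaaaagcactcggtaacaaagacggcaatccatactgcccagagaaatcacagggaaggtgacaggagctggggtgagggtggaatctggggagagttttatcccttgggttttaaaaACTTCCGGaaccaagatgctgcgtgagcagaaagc
The Mrpl45 stretch, chr11:97315466-97315715 on the plus strand, lies outside annotated genes and holds NRF1 matches from -120 to -111 and from -38 to -29. Mrpl17 (chr7:105811100-105811337, minus strand), within the span of Gm15645, has its match from -49 to -40. Mrps22 (chr9:98601680-98601929, minus strand), outside annotated genes, has an ETS match from -11 to -4. Mrpl48 (chr7:100583131-100583380, minus strand), inside the gene's own longer span in GENCODE, has one from -35 to -28, read on the opposite strand. Mrpl45 and Mrpl17, both with an NRF1 match, had log2 fold changes of 0.16 and -0.16.

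Median log2 fold changes of genes with and without a motif were 0.04 and 0.04 for NRF1, 0.07 and 0.03 for ETS, and 0.03 and 0.04 for YY1. For the other motifs searched they were 0.04 and 0.03 (SP1), 0.03 and 0.04 (CCAAT), 0.05 and 0.04 (E-box), and 0.14 and 0.04 (cyclic AMP element, 2 genes). The NRF1 motif was in 10 of 43 large subunit and 3 of 26 small subunit windows, and the YY1 motif in 6 and 6. The SP1 motif GGGCGG was in 49.3% of the windows (38.2% of all), CCAAT in 39.1% (41.1%) and the E-box CACGTG in 7.25% (8.10%). The cyclic AMP element TGACGTCA was in 2.90% (2.03%), in Mrpl16 and Mrpl49. A sterol element, searched as TCACNCCAC, was in 0 of the 69 windows and in 1.43% of all. A match describes letters in a window and no more.

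Among large subunit proteins, Mrpl45, Mrpl49 and Mrpl18 had the smallest p-values. Mrpl45, a mitochondrial addition near the peptide exit that holds the ribosome to the inner membrane, stood at 11.6, 11.6 and 12.5 FPKM in the control and 12.7, 13.9 and 13.6 FPKM in the atorvastatin libraries. Each atorvastatin library was above each control library. The log2 fold change was 0.16 ± 0.06 (standard error, here and below for fold changes; 3 libraries per group), with an adjusted p of 0.328 from limma. Mrpl49, another mitochondrial addition, whose span overlaps the gene Syvn1, had 16.3, 16.0 and 17.5 FPKM and then 17.7, 20.5 and 18.1 FPKM. The groups did not overlap, although control replicate 3 and atorvastatin replicate 1 were close. Its log2 fold change was 0.17 ± 0.07, with an adjusted p of 0.406 from limma. Mrpl18, of the bacterial uL18 family, had 24.2, 21.8 and 23.5 FPKM against 25.3, 25.6 and 25.1 FPKM (0.12 ± 0.06). Its atorvastatin libraries lay close together and above the controls.

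Mrpl37 and Mrpl23 also had higher values in each atorvastatin library. Mrpl37 is a mitochondrial addition and Mrpl23 a relative of the bacterial exit-site protein. Mrpl37, like Mrps5 below, was named after its values were seen, and gave 8.68, 8.93 and 8.62 FPKM in the control and 9.70, 9.39 and 8.99 FPKM in the atorvastatin group. Mrpl23, the lowest of the large subunit genes, gave 1.58, 1.60 and 1.43 FPKM and then 1.96, 1.65 and 1.77 FPKM (0.14 ± 0.07).

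Values on the lower side with atorvastatin were less separated. Mrpl17, a bacterial-type protein, had 2.36, 2.22 and 2.57 FPKM in the control and 2.11, 2.41 and 1.60 FPKM in the atorvastatin libraries, a log2 fold change of -0.16 ± 0.11. The groups overlapped, and atorvastatin replicate 3 was the lowest. Mrpl58, a peptidyl-tRNA hydrolase that also sits in the large subunit, gave 2.91, 4.11 and 2.83 FPKM and then 2.69, 3.09 and 2.66 FPKM (-0.16 ± 0.12). Its control replicate 2 stood above the other 5 libraries, which spanned 2.66 to 3.09 FPKM. Mrpl53 (-0.12 ± 0.10) and Mrpl30 (-0.08 ± 0.05) followed, with adjusted p-values from limma of 0.699 and 0.628.

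Mrpl12 and Mrpl24, the most abundant large subunit transcripts, barely differed between groups. Mrpl18, next in level, was higher in each atorvastatin library, as given above. Mrpl12 forms the flexible stalk that recruits translation factors, and it also binds mitochondrial RNA polymerase. It gave 39.3, 34.0 and 38.2 FPKM in the control and 37.1, 37.9 and 38.4 FPKM with atorvastatin, a log2 fold change of 0.03 ± 0.06 with a 95% interval of -0.13 to 0.18. The atorvastatin libraries fell inside the range of the controls. Mrpl24 averaged 33.0 FPKM (-0.03 ± 0.05). Mrpl10, the protein that anchors the Mrpl12 stalk, averaged 20.6 FPKM (0.05 ± 0.05), against 37.5 FPKM for Mrpl12.

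Among small subunit proteins Mrps21 had the largest difference of the 78 genes. Mrps21, a bacterial-type small subunit protein, lies on chromosome 3 (chr3:95862634-95871519, GRCm38, minus strand) and overlaps no other annotated gene. It had 30.0, 41.9 and 24.8 FPKM in the control and 47.9, 43.7 and 40.2 FPKM in the atorvastatin libraries. Control replicate 2 lay above atorvastatin replicate 3, so the groups overlapped. The log2 fold change was 0.46 ± 0.18, with a 95% interval of 0.03 to 0.89 and an adjusted p of 0.379 from limma. Without control replicate 2 it was 0.66, with an adjusted p of 0.103 from limma, and over the 16 alternatives tried the adjusted p ran from 0.103 to 0.655. Its mean FPKM, 32.2 ± 8.80 (SD, n = 3) in the control and 43.9 ± 3.89 (SD, n = 3) with atorvastatin, was the highest of the 29 small subunit genes.

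The 3 Mrps18 paralogs, all related to bacterial S18, are known to occupy separate places in the mitochondrial ribosome. Mrps18c, in the place of the bacterial protein, had 14.8, 15.2 and 15.7 FPKM in the control and 17.0, 17.5 and 15.9 FPKM with atorvastatin. The groups did not overlap, with atorvastatin replicate 3 just above control replicate 3 (0.13 ± 0.06, adjusted p 0.398 from limma). Mrps18b, elsewhere on the small subunit, had 10.7, 9.94 and 10.3 FPKM and then 10.7, 11.4 and 12.2 FPKM (0.13 ± 0.06), with overlap. Mrps18a, which structures place in the large subunit despite its symbol, averaged 5.25 FPKM, and its log2 fold change was -0.02 ± 0.10. The 3 paralogs thus had intervals of 0.01 to 0.26, -0.01 to 0.28 and -0.24 to 0.20. Whether they differ from each other was not tested.

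Other small subunit genes with separated groups differed by little. Mrps26 had 2.21, 1.90 and 2.21 FPKM in the control and 2.25, 2.58 and 2.34 FPKM with atorvastatin (0.12 ± 0.07). Mrps5, which lines the channel where mRNA enters, gave 4.83, 4.87 and 4.75 FPKM and then 5.26, 5.21 and 4.92 FPKM. Mrps30, a large subunit protein in structures, gave 3.21, 3.16 and 3.12 FPKM and then 3.27, 3.29 and 3.45 FPKM. In these 3 genes each atorvastatin library was above each control library. Mrps35 was the only 1 of the 10 separated genes with lower atorvastatin values, 4.15, 4.18 and 4.01 FPKM against 4.24, 4.32 and 4.28 FPKM. Its log2 fold change was -0.05 ± 0.05.

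Mrps12, Mrps24 and Mrps28, named for roles in handling the mRNA, had small positive estimates that were not called. So did 56 of the 78 genes, and the estimate of Mrps24 was -0.07 without control replicate 3. Mrps12, the protein of the decoding centre, had log2 fold change 0.08 ± 0.07 at a mean of 8.62 FPKM. Mrps24, at the mRNA entry, had 0.04 ± 0.10 at 5.68 FPKM, and Mrps28, related to bacterial S1, 0.08 ± 0.06 at 6.63 FPKM. The lower side of the small subunit was led by Mrps25 (-0.09 ± 0.08, with groups that overlap), ahead of Mrps31 (-0.03) and Mrps17 (-0.03). Mrps36 is now known as a component of the 2-oxoglutarate dehydrogenase complex rather than of the ribosome, and gave -0.04 ± 0.11 at 11.4 FPKM.

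Neither subunit stood out in the differences between atorvastatin and control, and a difference between the subunits was not tested. The median log2 fold change was 0.03 for the 49 Mrpl genes, with 35 positive and 14 negative, and 0.05 for the 29 Mrps genes, with 21 positive and 8 negative. Separated groups were found in 5 of the 49 Mrpl genes (10.2%), all higher with atorvastatin. Among the 29 Mrps genes there were 5 (17.2%), 4 higher and 1 lower. The share over all genes tested was 18.1%, with 1400 higher and 705 lower. Placing Mrps18a and Mrps30 in the large subunit and leaving out Mrps36, as structures do, gave medians of 0.03 (51 genes) and 0.06 (26 genes). The 46 genes with a bacterial counterpart had a median of 0.04 and the 31 mitochondrial additions a median of 0.03.

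The 2 subunits did differ in level. The median Mrpl gene had 10.8, 10.6 and 10.7 FPKM in the control libraries and 10.6, 11.6 and 10.5 FPKM in the atorvastatin libraries. The median Mrps gene had 6.68, 6.23 and 6.35 FPKM and then 6.61, 6.77 and 6.39 FPKM. The Mrpl median was the higher one in each of the 6 libraries. On the log2(FPKM + 1) scale the gap between the medians was 0.66 ± 0.04 (SD, n = 3) in the control and 0.65 ± 0.04 (SD, n = 3) with atorvastatin, ranging from 0.615 to 0.688 and from 0.610 to 0.696. It thus differed by less between groups than between libraries of a group.

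Summed levels separated the groups for the small subunit, and Mrps21 carried part of the difference. The Mrps sum was 259 ± 1.56 FPKM in the control and 279 ± 1.91 FPKM in the atorvastatin libraries (SD, n = 3 each), without overlap. The Mrpl sum was 546 ± 12.6 and 561 ± 11.2 FPKM, with overlap. Mrpl over Mrps was 2.11 ± 0.04 and 2.01 ± 0.04, again without overlap. That separation was narrow, with 2.061 in control replicate 2 and 2.058 in atorvastatin replicate 2. Leaving out Mrps21, a choice made after its values were seen, brought the Mrps sum to 227 ± 9.46 and 235 ± 2.15 FPKM (SD, n = 3 each), so that atorvastatin over control was 1.04 in place of 1.08. The groups then overlapped narrowly, with 233.649 FPKM in control replicate 3 and 233.641 FPKM in atorvastatin replicate 1. The ratio without Mrps21 was 2.41 and 2.38, with overlap. The sum over the 78 genes was 790 to 817 FPKM in the control and 829 to 852 FPKM with atorvastatin. As a share of all FPKM, 0.188% to 0.199% and 0.193% to 0.209%, the groups overlapped.

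**Figure D2:**
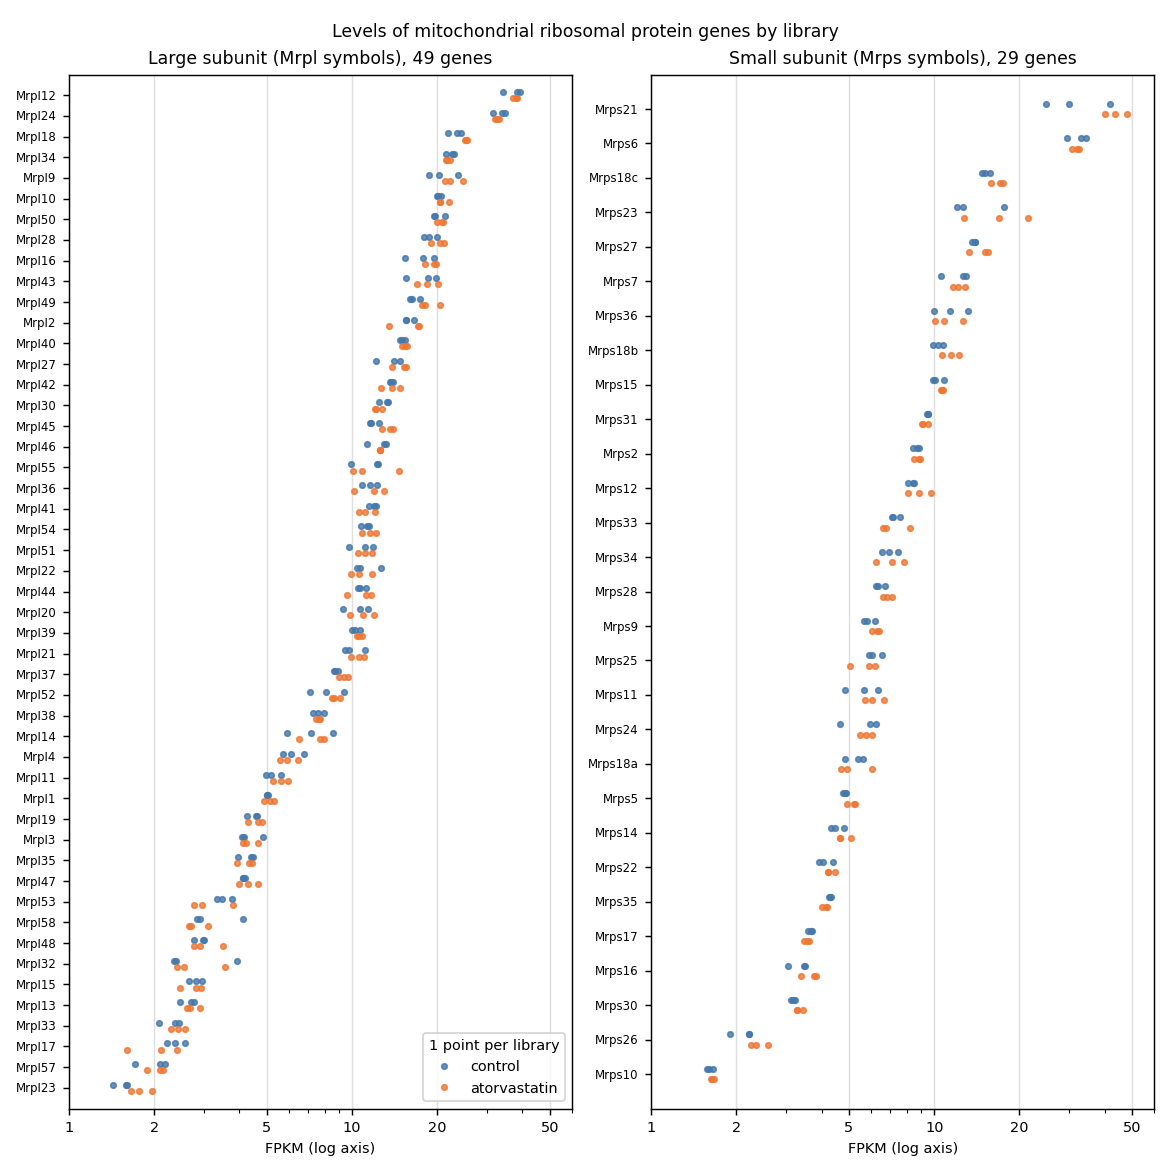
FPKM of each gene in each library (horizontal log axis; 1 point per library, control and atorvastatin in separate colours), for 49 Mrpl genes at the left and 29 Mrps genes at the right, ordered by mean. Points of a gene lie close together against the range between genes, 1.62 to 38.1 FPKM in the mean, and Mrps21 at the top right has the largest fold difference between group means, with overlapping libraries.

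Levels ranged 23.5-fold among the 78 genes, from a mean of 1.62 FPKM for Mrps10 to 38.1 FPKM for Mrps21. After Mrps21, the small subunit was led by Mrps6 (32.0 FPKM), whose span overlaps the sodium-inositol transporter gene Slc5a3, and Mrps18c (16.0 FPKM). The large subunit was led by Mrpl12, Mrpl24 and Mrpl18 (24.2 FPKM), with Mrpl57 (2.02 FPKM) and Mrpl23 (1.66 FPKM) at the bottom. There were 37 genes at or above 10 FPKM. Of the 5 -ps identifiers, Mrpl23-ps1 was listed at 4.10 to 5.57 FPKM, above Mrpl23 itself in every library, and Mrps36-ps1 at 2.06 to 2.95 FPKM. The assignment of reads that fit both a copy and its gene is not stated in the labels, so the levels of Mrpl23 and Mrps36 are uncertain. Mrps11 and Mrpl46, head to head on chromosome 7, overlap by 413 bases, and the strand setting is not given either.

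Levels tended to be lower in genes with a longer annotation. Across the 78 genes Spearman's rho between annotated exonic length (GENCODE M21) and mean FPKM was -0.65, with -0.58 across the 49 Mrpl and -0.73 across the 29 Mrps genes, beside -0.08 across 11631 genes tested. Genes are not independent replicates, these points share the same 6 libraries, and FPKM contains a division by length, so no p is given. The 26 shortest genes (607 to 1664 bases) had a median of 11.7 FPKM, the next 26 (1667 to 3291 bases) 10.5 FPKM and the 26 longest (3332 to 8631 bases) 4.20 FPKM. Mrps35 (8631 bases) and Mrps10 (8079 bases) were among the longest and Mrps21 (739 bases) among the shortest. The exonic length counts every annotated isoform, and the sources used here do not give the length the authors divided by.

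The gap between the subunits was not seen when the level was multiplied by annotated length. That product undoes a division by length and is not a level per transcript. The median annotated length was 2533 bases for Mrpl and 2172 bases for Mrps genes. The subunit with the lower median FPKM thus had the shorter median length, and the part of length in the gap was not tested. FPKM times kilobases had a median of 19.4 for both Mrpl and Mrps genes, where FPKM itself had medians of 10.8 and 6.63. On that scale the highest were Mrpl24 (74.4), Mrpl9 (59.0) and Mrpl16 (58.3), and the lowest Mrpl53 (2.65), a gene of 790 bases at 3.35 FPKM. Mrpl9 and Mrpl16 were named after their values were seen.

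**Figure D3:**
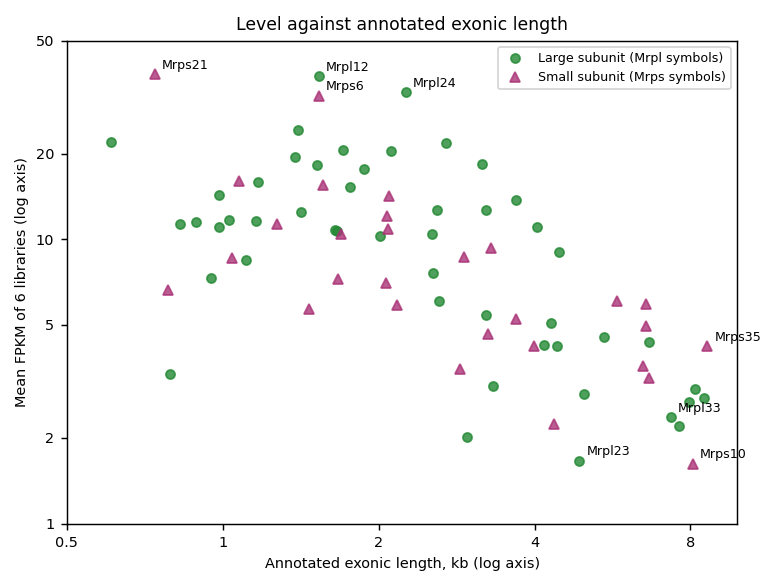
Mean FPKM over the 6 libraries (vertical log axis) against annotated exonic length in kilobases (horizontal log axis), 1 point per gene, circles for Mrpl and triangles for Mrps. Levels are lower at greater length, with a median of 11.7 FPKM in the 26 shortest and 4.20 FPKM in the 26 longest genes.

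Libraries of a group agreed closely on these genes. The median SD between libraries of a group was 0.078 on the log2(FPKM + 1) scale over the 78 genes, beside 0.090 over 9297 genes within the same range of levels. The smallest SDs on that scale, which compresses low levels, were 0.017 for Mrps10 and 0.019 for Mrps35. Mrps23, a mitochondrial addition to the small subunit, was the most variable at 0.320, with 12.6, 12.04 and 17.6 FPKM in the control and 16.9, 12.7 and 21.4 FPKM in the atorvastatin libraries. High and low libraries occurred in both groups. Mrpl32, whose import form is cut by the m-AAA protease before assembly, had 2.38, 3.92 and 2.34 FPKM and then 2.55, 3.57 and 2.40 FPKM. In both groups replicate 2 stood above the others. Both genes were chosen for mention after their values were seen.

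The rRNAs of the mitochondrial ribosome, set beside its proteins, were lower in every atorvastatin library, though neither passed the test. The small subunit rRNA mt-Rnr1 had 2156, 2631 and 1828 FPKM in the control and 1195, 1160 and 1526 FPKM with atorvastatin. Its means were 2205 ± 404 and 1294 ± 202 FPKM (SD, n = 3 each) and the groups did not overlap. The log2 fold change was -0.76 ± 0.16, with an adjusted p of 0.115 from limma. The large subunit rRNA mt-Rnr2 had 2054, 2536 and 2078 FPKM and then 1562, 1294 and 1722 FPKM. All its atorvastatin libraries were below the lowest control library. Its log2 fold change was -0.55 ± 0.13, with an adjusted p of 0.153 from limma. With quantile normalization mt-Rnr1 passed, at -0.89 and an adjusted p of 0.0489 from limma, and over the 16 alternatives the adjusted p ran from 0.0489 to 0.358 for mt-Rnr1 and from 0.0959 to 0.413 for mt-Rnr2.

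Set against the proteins, the rRNAs stood lower in the atorvastatin libraries. The sum of both rRNAs was 5.15, 6.54 and 4.83 times the summed FPKM of the 78 genes in the control libraries, and 3.28, 2.88 and 3.92 times with atorvastatin. The groups did not overlap (5.51 ± 0.91 and 3.36 ± 0.52, SD, n = 3 each). The protein sum by itself was 805 ± 13.9 and 840 ± 11.2 FPKM. As a share of all FPKM the rRNAs made up 1.06% ± 0.16 and 0.67% ± 0.08 (SD, n = 3 each; exact permutation test, two-sided p = 0.1, the smallest that 3 against 3 allows). The ratio of mt-Rnr2 to mt-Rnr1 was 0.953, 0.964 and 1.14 in the control and 1.31, 1.11 and 1.13 with atorvastatin, which overlap (exact permutation test, two-sided p = 0.3).

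**Figure D4:**
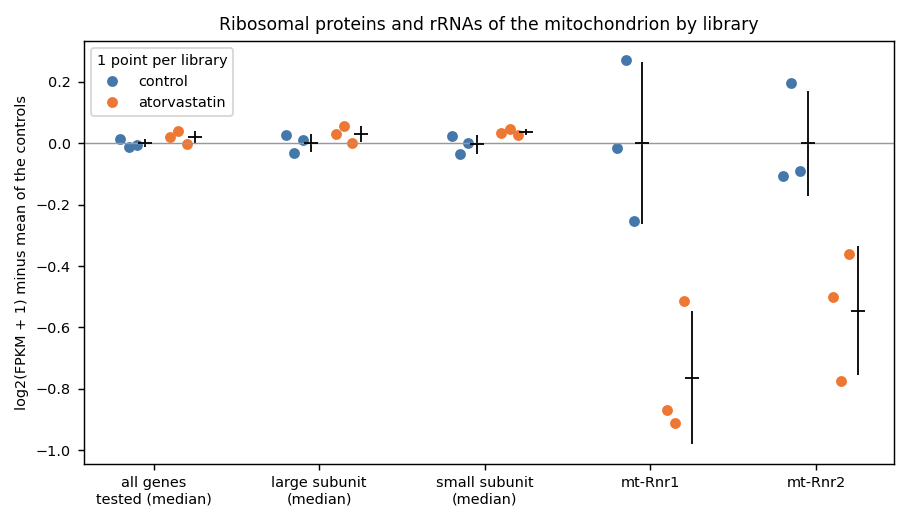
Difference of log2(FPKM + 1) from the mean of the controls (vertical axis) in each of the 6 libraries, as the median over all genes tested, over the Mrpl genes and over the Mrps genes, and for mt-Rnr1 and mt-Rnr2; bars show mean and SD of 3 libraries. The medians lie within 0.06 of 0, whereas the atorvastatin means of the rRNAs lie at -0.76 and -0.55.

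The neighbours of the rRNAs on the mitochondrial genome did not share their lower values. mt-Nd1, which encodes a subunit of respiratory complex I and follows mt-Rnr2 on the same transcript, had 6180, 6541 and 7190 FPKM in the control and 7665, 6809 and 7998 FPKM with atorvastatin. The ratio of mt-Rnr2 to mt-Nd1 was 0.332, 0.388 and 0.289 and then 0.204, 0.190 and 0.215, without overlap. The tRNA genes around the rRNAs had log2 fold changes of 0.14 (mt-Tf), 0.18 (mt-Tv) and 0.19 (mt-Tl1), with adjusted p-values from limma of 0.567, 0.659 and 0.651. In 2 nuclear rows known to hold sequence of cytosolic rRNA, Gm42418 and AY036118, the differences were 0.31 and 0.48, with adjusted p-values from limma of 0.472 and 0.126. These 6 rows were chosen after their values were seen. The labels do not say whether mRNA was selected or rRNA depleted before sequencing, and rRNA levels describe what that step left.

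Other genes of mitochondrial translation, in 6 lists drawn up by function, had 0 called members in limma, against 0.404% of all genes. At an unadjusted p under 0.05 there was 1 with lower values (Rars2, 4.76% of its list) and 1 with higher values (mt-Nd6, 7.69% of its list). The shares over all genes were 4.27% lower and 7.75% higher, and the other lists had 0. The 5 ribosomal proteins without an Mrp symbol had a median log2 fold change of 0.03, 4 positive and 1 negative. Among them Ptcd3, a small subunit protein, had 6.73, 7.01 and 6.49 FPKM in the control and 7.22, 7.19 and 7.22 FPKM with atorvastatin, without overlap. The 29 assembly factors tested had a median of 0.01 (16 positive, 13 negative), led by the helicase Ddx28 (0.12 ± 0.06) and by Rcc1l (0.10 ± 0.06). The 16 translation factors had a median of 0.03 (10 positive, 6 negative), led by the initiation factors Mtif3 (0.18 ± 0.09) and Mtif2 (0.08 ± 0.06).

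Of 21 genes listed for charging mitochondrial tRNAs with amino acids, 13 were positive and 8 negative, with a median of 0.04. They encode aminoacyl-tRNA synthetases, except Gatb, Gatc and Qrsl1, which encode subunits of an amidotransferase. Rars2, the enzyme for arginine, had 13.8, 13.4 and 13.0 FPKM in the control and 11.8, 11.8 and 12.3 FPKM with atorvastatin, a log2 fold change of -0.15 ± 0.05 (adjusted p 0.300 from limma). Each atorvastatin library was below each control library. Of 10 genes of mitochondrial transcription and DNA upkeep, 9 were positive (90%, against 57.3% of all genes), with a median of 0.07. They included the DNA-packaging factor Tfam (6.87, 8.21 and 7.97 FPKM, then 8.42, 8.78 and 8.33 FPKM) and the single-strand binding protein Ssbp1 (0.12 ± 0.07). The groups did not overlap for 4 of the 10 (40%), including Tfam and Ssbp1, against 18.1% of all genes. That share was 20% for the 5 ribosomal proteins without an Mrp symbol and 10.3% for the assembly factors. It was 6.25% for the translation factors, 14.3% for the tRNA charging list and 7.69% for the mitochondrially encoded mRNA genes.

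The 13 genes whose mRNAs the mitochondrial ribosome translates had a median log2 fold change of 0.03, 10 positive and 3 negative. mt-Nd6 had the smallest p, with 1258, 1355 and 1449 FPKM in the control and 1638, 1461 and 1570 FPKM with atorvastatin (0.20 ± 0.07, adjusted p 0.350 from limma). The groups did not overlap. mt-Nd6 is the one complex I mRNA read from the other strand, and it lies beside mt-Nd5 (0.14 ± 0.07). With the strand setting unknown, reads of mt-Nd6 and of antisense RNA from that region cannot be told apart.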

How the data were processed

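RNA from colon epithelial cells was sequenced in 3 control and 3 atorvastatin libraries. The authors deposited 1 FPKM value per gene and library; the unit was read from the values, whose totals differ. The build mm10 and the tools FastQC 0.11.2 and Bowtie, the last without a version, are listed per the submitters' processing notes, which give no further step. The quantification tool, annotation, strand setting, library selection and treatment of shared reads are not given in the sources used here. Read depth is unknown, so precision can be judged from the spread between libraries alone.

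A table of gene names matched 99.7% of the identifiers to symbols, and lengths and coordinates from GENCODE M21 (GRCm38). The 11644 genes that reached 1 FPKM in 3 or more libraries were fitted together with limma 3.58.1 (R 4.3.3; trended, robust, two-sided) on log2(FPKM + 1), which understates changes of genes with low levels. P-values were Benjamini-Hochberg adjusted over the 11644 genes. Exact permutation tests used scipy 1.17.1. The fit was tested on simulated data. Genes named are the 4 smallest p-values per direction and subunit, the 3 highest and 2 lowest per subunit, members with listed roles, and the 2 smallest p-values of each other list; 1 gene so selected is not reported here. Members and lists were chosen with earlier results of these data known, and motifs after the values were seen. Alternatives covered pseudocount, filter, scaling, a replicate block, limma's settings and each library left out.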

Additional observations from a re-analysis of the deposited data

How the results depend on the processing

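None of the 78 genes was called under any of the 16 alternatives. There the smallest adjusted p from limma ran from 0.103 (Mrps21, without control replicate 2) to 0.588. An unadjusted p under 0.05 was found for 1 to 5 of the 78, or 1.28% to 7.27% of those tested. The share of all genes was 7.70% to 12.6%. The count of called genes in the whole table was far less steady: 47 became 2 with no filter on low values, 1 with the replicate block, and 7 to 72 when 1 library was left out (7, 30 and 72 for control replicates 1 to 3, and 13, 61 and 18 for atorvastatin replicates 1 to 3). Deviations from the group mean correlated at -0.14, -0.11 and 0.01 for libraries with the same replicate number, and at -0.05 to 0.16 for those with different numbers. With 3 libraries per group, this check cannot decide whether the replicate numbers pair the libraries. The split of genes at an unadjusted p under 0.05, 902 higher and 497 lower, became 724 and 691 with median-ratio scaling, and 765 and 633 with quantile normalization. The median of all genes moved by less than 0.1 (log2) under these scalings. The difference in the gap between subunit medians, -0.0079 as reported, was 0.046 with a filter of 5 FPKM, where 55 of the 78 genes were left. The large subunit median was -0.0008 without control replicate 2 and positive otherwise. mt-Rnr1 was called at -0.89 with quantile normalization and under no other alternative; the cause was not tested. Of the 28 Mrp genes that the naming rule selected, 22 kept their sign throughout, and Mrpl12, Mrpl57, Mrps6, Mrps18a, Mrps24 and Mrps36 changed it in 1 to 3 alternatives. Signs of the Mrp genes named for other reasons were not followed. Unknown read depth limits the genes near 1 FPKM most.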
